A study of Homo sapiens with 74 samples.

Results

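Chromosome 18 was followed as its 803 bins of 100 kb, out of 28163 bins of chromosomes 1 to 22 in the deposited bin table on hg38. Bins were taken by chromosome name alone, though the chromosome itself was chosen with earlier results of these data known. One window, between the bins that end at 32700000 and start at 32800001, was not analysed here. Of the 803 bins, 802 had enough counts to be tested.

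Chromosome 18 is a small, gene-poor human chromosome known for lying near the nuclear edge in many cell types. By contrast, chromosome 19, also small but rich in genes, is known for lying in the interior. The nuclear lamina is a mesh of lamin proteins under the inner nuclear membrane. DNA that touches it forms lamina-associated domains (LADs), long stretches with few genes and little transcription, separated by inter-LAD regions (iLADs). DamID marks such contact with Dam, a methylase from bacteria that acts on the adenine of GATC. When Dam is fused to lamin B1 (LMNB1), GATC sites near the lamina are methylated, and DpnI, which cuts only methylated GATC, releases them for sequencing. Dam alone methylates accessible DNA and serves as the control.

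All samples were of HEK293T, an established line of human embryonic kidney cells that carries a viral large T antigen. The series held 74 samples in 13 groups, and each bulk group had 2 libraries. Bulk DamID compared DamV133A-LMNB1 with DamV133A, V133A being a variant of Dam. The variant comparison had DamV133A-LMNB1 and DamV133A beside DamWT-LMNB1 and DamWT. RNA was measured after transfection of DamV133A-LMNB1, DamV133A or m6A-Tracer (a fluorescent reader of methylated GATC), and in untreated cells. The single cells, each taken through a microfluidic device, were 15 cells of batch 1 with DamV133A-LMNB1 + m6A-Tracer, 36 cells of batch 2 with DamV133A-tdTomato-LMNB1 + m6A-Tracer-NES, and 3 Dam-only cells of batch 1 with DamV133A + m6A-Tracer. Per the labels, plasmids were transfected transiently and the transfected cells received Shield-1 at 1 mM for 20 h. Construct, reader and library kit all changed between the batches of cells and cannot be told apart. Nothing in the labels says that libraries of a group came from separate cultures, so p-values measure only the spread between libraries.

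Bulk libraries held 402171358 to 524019579 counts, variant libraries 3159868 to 10663291, RNA libraries 39690886 to 51455298, and cells 9504 to 348768 fragments. LMNB1 RNA, which checks the fusion label, was at 2528 and 1981 CPM (a count scaled to library size) in DamV133A-LMNB1 libraries, against 258 and 262 CPM in DamV133A libraries. It was at 255 and 262 CPM in m6A-Tracer libraries, but at 744 and 746 CPM in untreated cells. Of the markers used to check the line, XRCC5 was at 592 to 646 CPM, and HBB, PTPRC, ALB, DCN and PECAM1 stayed under 1 CPM, while the fibroblast marker COL1A1 was at 24.3 to 28.9 CPM.

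DamID reads only GATC, so the promoters below are printed with each GATC in capitals, to show how few sites a gene start offers the method. They are the 250 bases before the RefSeq start (GRCh38.p14), 5′ to 3′ on the gene's strand. DSG1, DSC3 and DSG2 lie at the edge of a long LAD run described below, CDH19 lies in the longest run, and RPL17 and SMAD4 lie in iLAD bins. DSG1 encodes a desmosomal cadherin of the epidermis, and its promoter (chr18:31317910-31318159, plus strand) held 2 GATC sites.
DSG1: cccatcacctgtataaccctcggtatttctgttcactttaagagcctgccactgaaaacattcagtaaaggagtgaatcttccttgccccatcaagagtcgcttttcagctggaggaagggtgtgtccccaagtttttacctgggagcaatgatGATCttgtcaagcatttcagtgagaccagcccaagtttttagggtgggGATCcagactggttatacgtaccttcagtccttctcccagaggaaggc
DSC3, another desmosomal cadherin (chr18:31042743-31042992, minus strand), held none.
DSC3: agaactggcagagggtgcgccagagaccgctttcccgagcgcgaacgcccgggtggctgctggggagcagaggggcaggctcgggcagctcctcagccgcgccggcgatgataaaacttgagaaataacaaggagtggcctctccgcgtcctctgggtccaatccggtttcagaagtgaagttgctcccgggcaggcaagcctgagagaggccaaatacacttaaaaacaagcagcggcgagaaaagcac
DSG2, the desmosomal cadherin of simple epithelia (chr18:31497927-31498176, plus strand), held none.
DSG2: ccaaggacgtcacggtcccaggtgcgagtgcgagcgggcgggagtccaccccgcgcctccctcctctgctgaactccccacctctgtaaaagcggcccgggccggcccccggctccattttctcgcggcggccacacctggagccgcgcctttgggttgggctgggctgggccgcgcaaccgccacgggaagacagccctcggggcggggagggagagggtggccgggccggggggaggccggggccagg
CDH19, a cadherin of the glial lineage (chr18:66604091-66604340, minus strand), held none.
CDH19: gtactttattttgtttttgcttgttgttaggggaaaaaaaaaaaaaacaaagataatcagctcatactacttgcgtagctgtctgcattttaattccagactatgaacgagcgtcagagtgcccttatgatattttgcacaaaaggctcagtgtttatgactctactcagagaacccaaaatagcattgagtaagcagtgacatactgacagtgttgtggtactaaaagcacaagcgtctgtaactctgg
RPL17, a protein of the large ribosomal subunit (chr18:49492466-49492715, minus strand), held 1.
RPL17: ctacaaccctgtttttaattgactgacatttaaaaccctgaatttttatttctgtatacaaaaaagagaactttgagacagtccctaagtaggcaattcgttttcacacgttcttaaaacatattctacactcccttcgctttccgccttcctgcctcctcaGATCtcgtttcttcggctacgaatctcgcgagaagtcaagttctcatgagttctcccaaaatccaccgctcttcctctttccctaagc
SMAD4, the shared transducer of TGF-beta and BMP signalling (chr18:51029963-51030212, plus strand), held none.
SMAD4: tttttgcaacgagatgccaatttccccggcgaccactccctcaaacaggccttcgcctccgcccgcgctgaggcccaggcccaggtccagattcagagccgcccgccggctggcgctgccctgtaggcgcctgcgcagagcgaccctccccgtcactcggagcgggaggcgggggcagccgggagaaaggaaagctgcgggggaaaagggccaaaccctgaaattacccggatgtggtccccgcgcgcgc

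GATC reads the same on both strands. It occurred in 268 of 721 such promoters of chromosome 18 (37.2%), against 35.7% of 33725 promoters of all autosomes. All 419 GATC in the promoter windows of chromosome 18 (300 bases each, with the first 50 of the gene) fell on a boundary of the deposited DpnI fragments, so the fragments and the RefSeq coordinates share a frame. At this scale the variant counts were few and differed widely between replicates, and no test was made on them. The 3 fragments that overlap the DSG1 promoter held 106 and 10 counts in DamV133A-LMNB1 libraries, against 21 and 29 in DamV133A libraries, which overlapped. They held 111 and 29 counts in DamWT-LMNB1 libraries, against 13 and 3 in DamWT libraries, which did not overlap. These counts are not scaled to depth, which was 10663291 and 4921988 in DamWT-LMNB1 libraries, against 4446062 and 3159868 in DamWT libraries. The fragment over the DSG2 promoter held 0 and 0 counts in DamV133A-LMNB1 libraries, against 0 and 2 in DamV133A libraries. Contact was read in 100 kb bins, which on chromosome 18 held a median of 233 DpnI fragments.

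In bulk, 316 of the 802 tested bins (39.4%) were higher in DamV133A-LMNB1 than in DamV133A libraries, and 181 (22.6%) were lower, at an edgeR quasi-likelihood adjusted p under 0.05. Over all autosomal bins the same test called 35.2% higher and 36.2% lower, so chromosome 18 was near the background in its share of higher bins and below it in its share of lower bins. Higher bins are called LAD bins and lower bins iLAD bins from here on, and the other 305 are uncalled. The median log2 fold change was 0.28 over chromosome 18, against −0.08 over the other autosomes, which put chromosome 18 at rank 6 of 22 by median and at rank 8 by share of LAD bins. Chromosome 4 held the highest share of LAD bins, at 63.3%. Of the autosomes compared with it below, chromosome 17 had 4.69% of bins in LADs, chromosome 19 had 0.535% and chromosome 20 had 9.16%. Chromosomes 15, 16 and 14 were nearer to it in number of bins than chromosomes 19 and 20 were. They had 6.52%, 6.67% and 28.7% of bins in LADs. The split depended on scaling. With library totals in place of TMM scaling, 269 bins were higher and 254 lower, or 51.4% of calls higher against 63.6%, and the median of all bins moved to −0.32, against −0.06. Without DamV133A replicate 1 or 2 the count of lower bins was 110 or 102. All 27 bins of chromosome 18 that the authors marked as control LADs were LAD bins here, and all 12 marked as control iLADs were iLAD bins. Whether the marks were chosen from the same bulk libraries was not checked, so this match is a description.

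**Figure D1:**
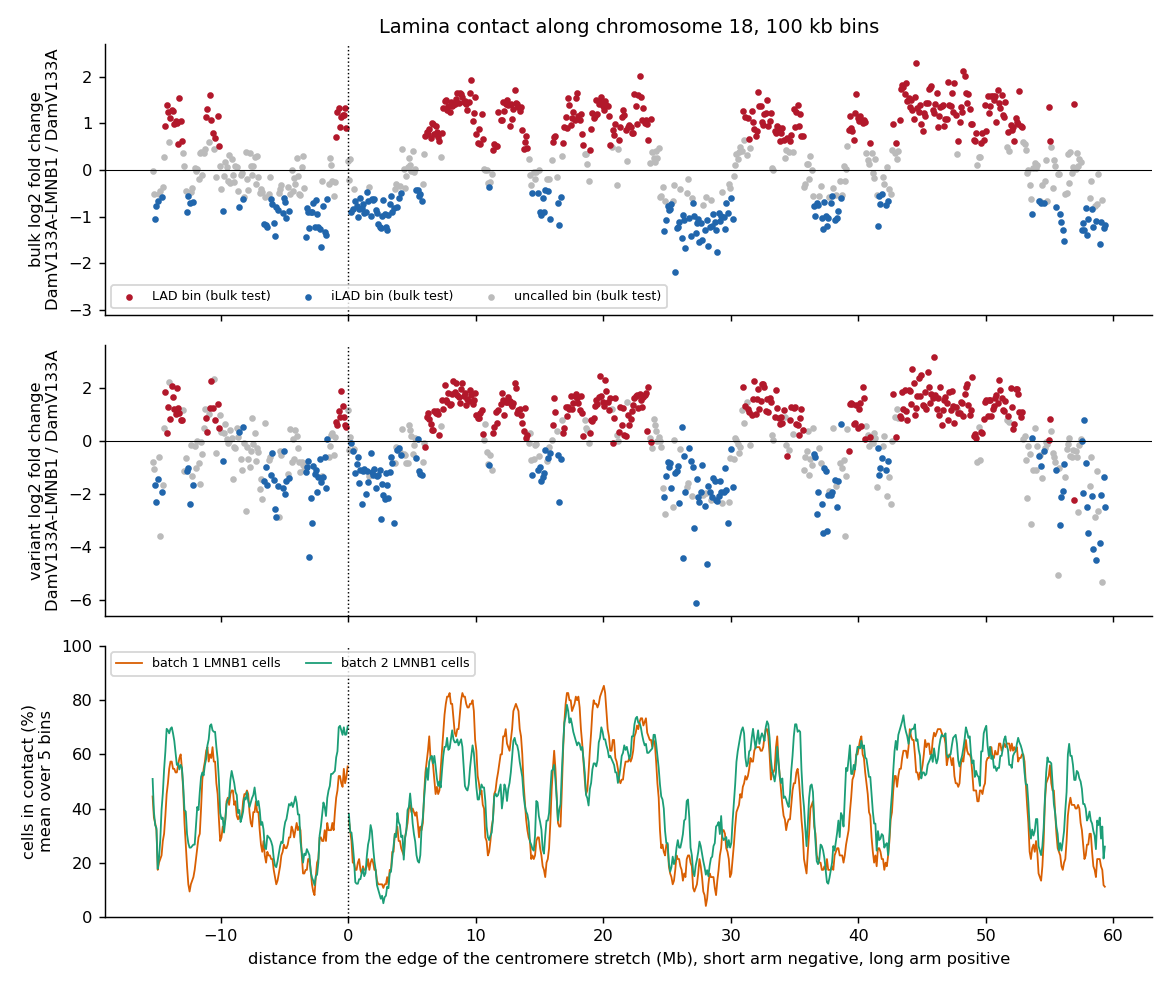
Bulk log2 fold change (top), V133A variant log2 fold change (middle) and share of fusion cells in contact as a mean over 5 bins (bottom) for 100 kb bins of chromosome 18, by distance in Mb from the edge of the centromere stretch, with the short arm at negative distances. LAD bins, 286 on the long arm and 30 on the short arm, form blocks in which the variant ratio is above 0 for 310 of 316 bins and the share of cells in contact peaks.

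Chromosome 18 as a whole was compared with the other autosomes together and with chromosomes 17, 19 and 20. This was put to 12 libraries, with 1 value each, the log2 ratio of counts per bin. Chromosome 18 held 2.67 and 2.68% of autosomal counts in bulk DamV133A-LMNB1 libraries, against 2.39 and 2.34% in DamV133A libraries. In the variant set it held 2.68 and 2.76% in DamV133A-LMNB1, against 2.49 and 2.52% in DamV133A, and 2.74 and 2.60% in DamWT-LMNB1, against 2.51 and 2.48% in DamWT. The fusion libraries were above their Dam libraries in all 3 experiments, with no overlap. Relative to the other autosomes, the gain with the fusion was 0.13 on the log2 scale, or 1.10-fold, averaged over the experiments.

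Against single chromosomes the gain was larger. Per bin, chromosome 18 over chromosome 19 stood at log2 1.02 and 0.98 in bulk DamV133A-LMNB1 libraries, against −0.12 and −0.26 in DamV133A libraries. In the variant set the means were 2.29 ± 0.25 in DamV133A-LMNB1 against 0.49 ± 0.02 in DamV133A, and 1.39 ± 0.22 in DamWT-LMNB1 against 0.37 ± 0.05 in DamWT (SD, n = 2 each). The average gain was 1.34 over chromosome 19 (2.53-fold), 1.16 over chromosome 17 (2.24-fold) and 0.89 over chromosome 20 (1.85-fold). Each gain was positive in all 3 experiments, and the exact permutation test within experiments (two-sided) gave p = 0.00926 for each, the smallest it can give, and the same after Benjamini-Hochberg adjustment over 5 values. By experiment, the gain over chromosome 19 was 1.80 for variant V133A, 1.19 for bulk V133A and 1.02 for variant wild type, and the differences between experiments were not tested.

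**Figure D2:**
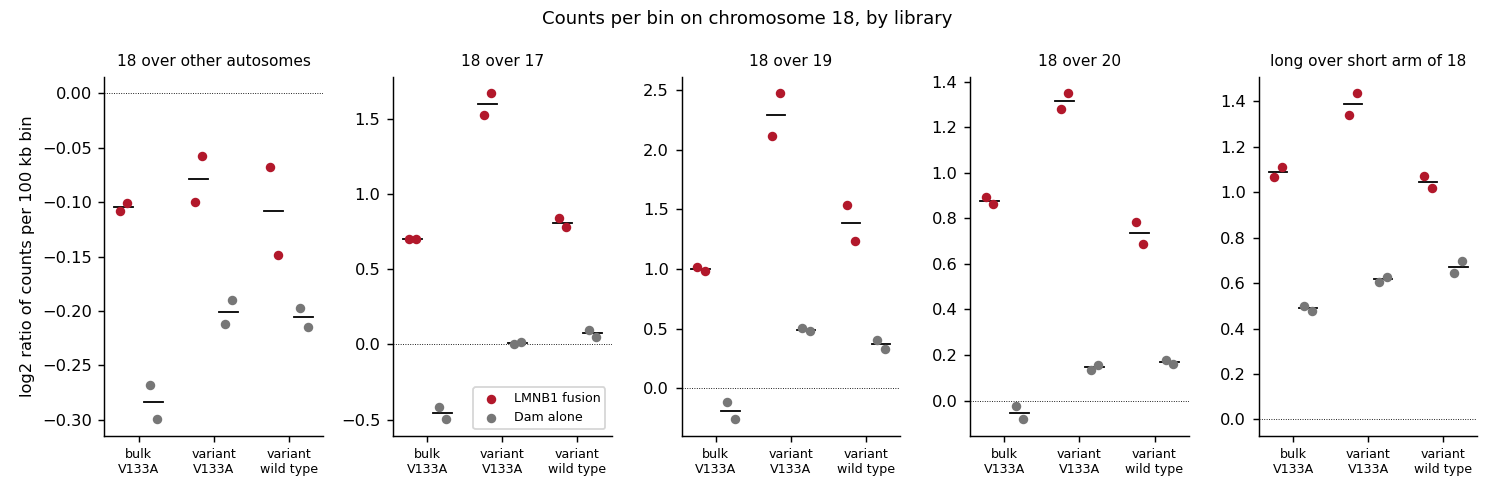
Log2 ratio of counts per 100 kb bin for chromosome 18 over the other autosomes, over chromosomes 17, 19 and 20, and for the long over the short arm. Each point is a library (n = 2 per group), with LMNB1 fusions left and Dam alone right, and each line is a mean. In every panel and experiment the fusion points lie above the Dam points.

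The arms differed. The arms were split at a stretch of 55 bins (chr18:15400001-20900000) with fewer than 1000 summed bulk Dam counts a bin, in which no bin was called. The long arm had 286 LAD bins of 593 (48.2%) and 139 iLAD bins (23.4%), and its bins had a log2 fold change of 0.43 at the median. The short arm had 30 LAD bins of 154 (19.5%) and 42 iLAD bins (27.3%), with a median of −0.21. Counts per bin on the long over the short arm averaged log2 1.09 ± 0.03 in bulk DamV133A-LMNB1 libraries, against 0.49 ± 0.02 in DamV133A libraries (SD, n = 2 each). The gain was 0.60 in bulk, 0.77 in variant V133A and 0.38 in variant wild type, with a mean of 0.58 (1.50-fold) and p = 0.00926 by the same exact permutation test.

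None of the 4 bins at the ends of the arms was called LAD. The first bin of the short arm (chr18:1-100000, with TUBB8B, a tubulin gene) had a bulk log2 fold change of −0.02 ± 0.32 (SE), and the last tested bin of the long arm (chr18:80200001-80300000, with PARD6G, a cell polarity gene) was an iLAD bin at −1.18 ± 0.32. Beside the centromere, the last bin of the short arm stood at 0.18 ± 0.29 and the first of the long arm at −0.21 ± 0.22, both uncalled.

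LAD bins lay in 37 runs of consecutive bins, 10 of them of a single bin, and iLAD bins in 58 runs, 25 of a single bin. The window that was not analysed separates a LAD run that ends at 32700000 from the one that starts at 32800001. Whether these are a single run is therefore not known. The longest LAD run held 45 bins and the longest iLAD run 19. The 5 longest LAD runs held 137 of the 316 LAD bins, and all were on the long arm. The longest, 4.5 Mb at chr18:64100001-68600000, stood at a median of log2 1.38 and contained CDH7 and CDH19, which are cadherins, and DSEL, an enzyme of dermatan sulfate synthesis. The next, 3.3 Mb at chr18:28200001-31500000, had a median of 1.41 and held 6 desmosomal cadherins. Runs of 2.2 Mb (chr18:32800001-35000000, median 1.28), 2.0 Mb (chr18:70500001-72500000, median 1.38) and 1.7 Mb (chr18:37700001-39400000, median 1.11) followed. The last of these tied in length with runs at chr18:39800001-41500000 (median 1.28) and chr18:42800001-44500000 (median 1.00), and was taken as the fifth because it comes first along the chromosome. The 2.2 Mb run contained ASXL3 (a chromatin regulator), CCDC178, DTNA (dystrobrevin alpha, of the dystrophin complex) and NOL4, and the 2.0 Mb run contained no protein-coding gene.

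The longest iLAD run, 1.9 Mb at chr18:22600001-24500000, stood at a median of log2 −0.93 and held 13 protein-coding genes, among them ANKRD29, CABLES1, CABYR and HRH4 (the histamine H4 receptor). Runs of 1.3 Mb (chr18:12000001-13300000, median −0.94) and 1.1 Mb (chr18:21400001-22500000, median −0.77) held 13 and 6 genes, including AFG3L2, a mitochondrial protease, and GATA6, a transcription factor of endoderm and heart. Runs of 0.8 Mb each held ZBTB7C (chr18:47900001-48700000, median −1.13) and RPL17, ACAA2, LIPG and MYO5B (chr18:49400001-50200000, median −1.10). The 5 longest LAD runs thus contained 14 protein-coding genes over 13.7 Mb, and the 5 longest iLAD runs 39 over 5.9 Mb.

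The bin with the largest bulk fold change, chr18:65400001-65500000 in the longest LAD run, had 56.9 and 55.0 CPM in DamV133A-LMNB1 libraries, against 13.0 and 9.76 CPM in DamV133A libraries, a log2 fold change of 2.30 ± 0.23 (SE, edgeR adjusted p = 2.98e-08). The next were the neighbouring bins at chr18:69100001-69200000 (2.12 ± 0.24) and chr18:69200001-69300000 (2.02 ± 0.23). None of these bins contained the midpoint of a protein-coding gene. The bin with the smallest, chr18:46500001-46600000, had 4.08 and 2.51 CPM in DamV133A-LMNB1 libraries, against 15.7 and 14.4 CPM in DamV133A libraries, a log2 fold change of −2.19 ± 0.34 (adjusted p = 9.88e-06). It contains LOXHD1, a gene of inner ear hair cells, which had 0.0229 CPM of RNA in untreated cells. It was followed by chr18:49800001-49900000 (−1.76 ± 0.29) and chr18:47300001-47400000 (−1.67 ± 0.31), neither with a gene midpoint.

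LAD bins were poor in genes. Of 270 RefSeq protein-coding genes on chromosome 18, each placed by its midpoint, 43 were in LAD bins (1.36 per Mb), 121 in iLAD bins (6.69 per Mb) and 105 in uncalled bins (3.44 per Mb). These are 16.0%, 45.0% and 39.0% of the 269 genes in tested bins, the shares beside which the gene lists are given. On the other autosomes the densities were 2.22, 12.7 and 5.33 per Mb, so each class on chromosome 18 had fewer genes. Of the genes with an RNA value, 40.2% ± 1.7 in LAD bins and 86.1% ± 0.59 in iLAD bins reached 1 CPM in untreated cells (SD, n = 2 libraries). The shares on the other autosomes were 41.7% ± 0.10 and 72.9% ± 0.058. At a limit of 0.1 CPM the shares on chromosome 18 were 73.2% for genes of LADs and 92.4% for genes of iLADs.

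The 7 desmosomal cadherins, which join epithelial cells at desmosomes, sit side by side at the end of the 3.3 Mb LAD run, and 6 were in LAD bins, against 16.0% of all genes of chromosome 18. DSG1 and DSG4 shared a bin with 132.5 and 127.6 CPM in DamV133A-LMNB1 libraries, against 63.0 and 50.4 CPM in DamV133A libraries (log2 fold change 1.20 ± 0.15, adjusted p = 5.13e-07). Their RNA in untreated cells was 0.128 ± 0.077 and 0.106 ± 0.012 CPM (SD, n = 2). DSC1 (0.88 ± 0.14) and DSG3 (0.65 ± 0.15) were also in LAD bins, with RNA of 0.319 and 0.142 CPM.

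DSC2 and DSC3 differed from these in RNA. Their shared bin was a LAD bin, with 120.4 and 132.2 CPM in DamV133A-LMNB1 libraries, against 88.6 and 81.4 CPM in DamV133A libraries (0.57 ± 0.13, adjusted p = 8.04e-04), although DSC3 had 109.8 ± 3.9 CPM of RNA and DSC2 64.8 ± 0.64 CPM. DSG2, with the most RNA of the family at 384 ± 7.3 CPM, had its midpoint in the first uncalled bin past the run, with 80.9 and 77.0 CPM in DamV133A-LMNB1 libraries, against 81.6 and 74.2 CPM in DamV133A libraries (0.02 ± 0.15, adjusted p = 0.912). Its start lay in the last bin of the run (0.65 ± 0.15), so DSG2 spans the border.

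**Figure D3:**
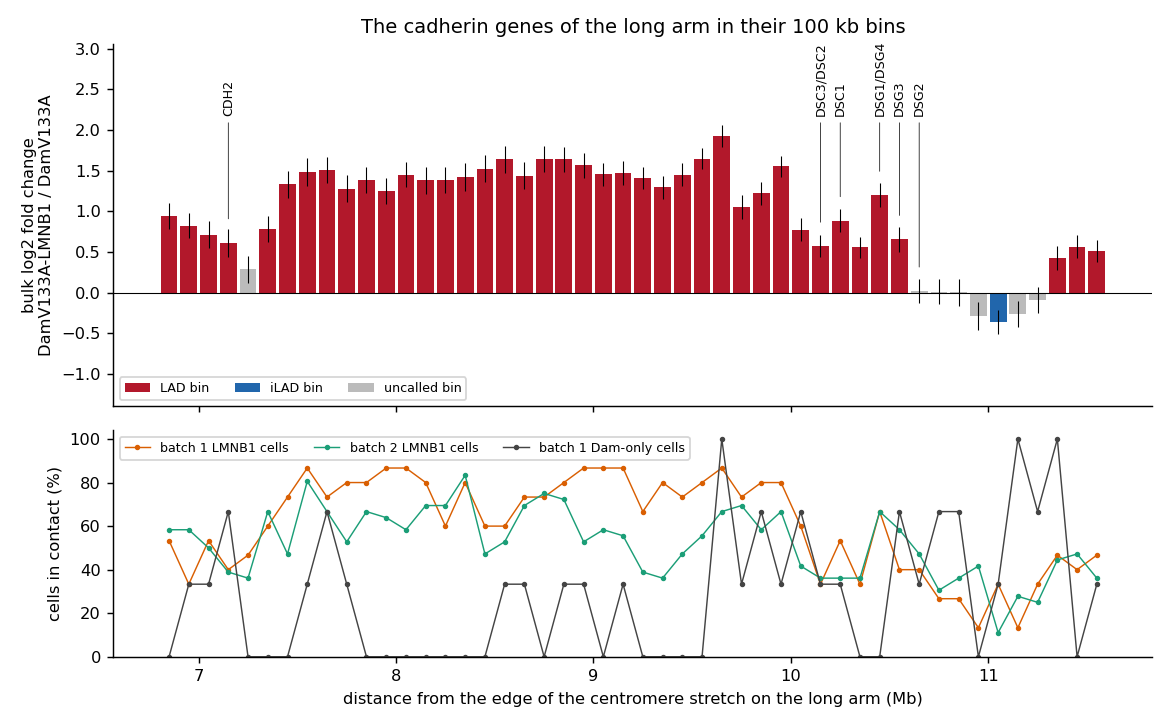
Bulk log2 fold change with its SE (top) and share of cells in contact (bottom) for 100 kb bins around the desmosomal cadherins, by distance in Mb past the centromere stretch. Cadherin genes are written over the bin of their midpoint. The ratio drops from 1.20 in the bin of DSG1 and DSG4 to 0.02 in that of DSG2, and the shares of the 3 Dam-only cells take only 4 levels.

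All 4 other cadherins were in LAD bins, CDH19 at 1.75 ± 0.23, CDH20 at 1.03 ± 0.26, CDH7 at 0.99 ± 0.24 and CDH2 at 0.61 ± 0.17. CDH2 encodes N-cadherin and, placed by its midpoint, had the most RNA of any gene in a LAD bin of chromosome 18, at 128.9 ± 5.3 CPM. The other 3 were at 0.36 CPM or less. CDH2 reached to chr18:28177130, past the end of its LAD run at 28100000. It thus ended in the gap before the next LAD run, which starts at 28200001. With library totals as the scale, 3 of the 4 and 6 of the 7 desmosomal cadherins were still LAD. The 5 genes of LAD bins with the most RNA were CDH2, DSC3, DSC2, DTNA (64.4 ± 1.8 CPM) and RTTN (27.6 ± 0.52 CPM), the last a centriole protein.

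Clade B serpins, protease inhibitors in a cluster on the long arm, had 3 of 10 members in LAD bins and 7 in uncalled bins, against 16.0% and 39.0% of all genes of chromosome 18, and the 10 lay in 6 bins. SERPINB3 and SERPINB4 shared a bin at 0.98 ± 0.25, SERPINB2 was at 0.58 ± 0.25, and SERPINB5 was an uncalled member at −0.51 ± 0.24. None of the 10 reached 1 CPM, so RNA was low in LAD and uncalled bins alike. Of 11 listed long-arm genes with roles in the nervous system, 5 were in LAD bins, 2 in iLAD bins and 4 uncalled, against 19.6%, 43.7% and 36.7% of all 199 long-arm genes. NOL4 (1.44 ± 0.14), RIT2 (0.97 ± 0.23), NETO1 (0.95 ± 0.24) and DCC, a netrin receptor (0.83 ± 0.25), led the LAD members, whereas MBP (myelin basic protein) was at −1.52 ± 0.40 and CELF4 at −1.17 ± 0.26. Of the melanocortin receptors, MC4R, which acts in appetite control, was in a LAD bin (0.91 ± 0.24), and MC2R and MC5R shared an uncalled bin at −0.29 ± 0.30. With library totals as the scale, 2 of the 10 serpins were LAD and 1 was iLAD. On that scale 4 of the 11 nervous system genes were LAD and 3 were iLAD.

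Of 16 housekeeping genes, which most cells use, 0 were in LAD bins, 7 in iLAD bins and 9 uncalled, against 16.0%, 45.0% and 39.0% of all genes of chromosome 18. The iLAD count is thus near the share of all genes. All 16 reached 1 CPM. RPL17 (−1.20 ± 0.24), SNRPD1, a spliceosome protein (−0.997 ± 0.18), SEH1L, a nucleoporin (−0.94 ± 0.31), and SMCHD1, a chromatin protein (−0.90 ± 0.25), had the lowest log2 fold changes of the 7. RPL17 shares reads with a readthrough gene, so its RNA level of 550 CPM is uncertain. Of 14 genes listed on the short arm, 0 were in LAD bins, 6 in iLAD bins and 8 uncalled, against 5.71%, 48.6% and 45.7% of all 70 genes of that arm. SMAD4 was in an iLAD bin (−1.04 ± 0.25), and SMAD2 (−0.60 ± 0.27) and SMAD7 (−0.58 ± 0.27), which also transduce or inhibit TGF-beta signals, were uncalled. LAMA3, a laminin chain, was iLAD (−1.22 ± 0.21) and LAMA1 uncalled (−0.07 ± 0.31). Library totals made 13 of the 16 housekeeping genes, 9 of the 14 short-arm genes and all 3 SMADs iLAD.

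RNA of genes on chromosome 18 was then compared between DamV133A-LMNB1 and DamV133A cells. Of 217 protein-coding genes tested, 16 were higher (7.37%) and 14 lower (6.45%), against 12.7% and 7.55% of all 17740 genes tested. In LAD bins 0 of 26 genes were higher and 1 was lower. That gene, C18orf54, named after its value was seen, had 20.9 and 18.0 CPM in DamV133A-LMNB1 libraries, against 23.9 and 23.5 CPM in DamV133A libraries (log2 fold change −0.28 ± 0.08, adjusted p = 0.0472). EPG5, an autophagy gene in an iLAD bin, had 19.4 and 14.1 CPM in DamV133A-LMNB1 libraries, against 24.9 and 28.5 CPM in DamV133A libraries (−0.67 ± 0.14, adjusted p = 0.0218). PIEZO2, a mechanosensitive channel (−1.06 ± 0.31), SETBP1 (−0.73 ± 0.17), ONECUT2 (−0.68 ± 0.16) and ZNF407 (−0.64 ± 0.17) were the others of the 5 largest changes among the 30 called genes. Larger fitted changes that did not pass were those of genes with low RNA, such as MC2R (−1.76 ± 0.54, adjusted p = 0.0531). The counts moved with single libraries. Without DamV133A-LMNB1 replicate 1 there were 36 higher and 75 lower, without its replicate 2 there were 22 lower, and without any 1 library of DamV133A, m6A-Tracer or untreated cells there were 0 in either direction. With library totals as the scale 9 were higher and 33 lower, or 21.4% of calls higher against 53.3%. In RNA from bulk cultures, a change in each cell and a change in the share of transfected cells cannot be told apart.

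The variant libraries gave measurements independent of the bulk calls. In V133A, 195 of 758 tested bins of chromosome 18 (25.7%) were higher in DamV133A-LMNB1 than in DamV133A and 107 (14.1%) were lower, against 27% and 23.7% of all bins. Of the 316 LAD bins, 191 were higher and 0 lower, and their log2 fold changes had a median of 1.27, while of the 181 iLAD bins 75 were lower and 0 higher, with a median of −1.34. In 310 of 316 LAD bins the change was above 0, and in 172 of 181 iLAD bins below 0. In the 3.3 Mb run with the desmosomal cadherins 32 of 33 bins were higher, and in the 4.5 Mb run 28 of 45. Their median V133A log2 fold changes were alike, at 1.53 and 1.52. Without DamV133A replicate 1 there were 128 higher and 48 lower, without its replicate 2 there were 47 lower, and with library totals as the scale 123 were higher and 178 lower, or 40.9% of calls higher against 64.6%, with the median of all bins at −0.50, against −0.10.

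With wild-type Dam fewer bins passed. In DamWT-LMNB1 over DamWT 13 bins (1.72%) were higher, all of them LAD bins, and 0 were lower, against 2.42% and 0.212% of all bins. At an unadjusted p under 0.05 there were 113 bins, and DESeq2 called 65 higher and 10 lower. The count of higher bins was 1 with library totals as the scale, and between 0 and 36 when 1 of the 8 libraries was left out. Medians of the log2 fold change were 0.58 for LAD bins and −0.49 for iLAD bins. The test of the difference between the effects, V133A minus wild type, called 3 bins higher and 1 lower of 758, against 0.136% and 0.358% of all bins.

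Between DamV133A and DamWT without LMNB1, edgeR called 0 bins of chromosome 18, against 0% of all bins in each direction, while 34 of 758 had p under 0.05 before adjustment and DESeq2 called 2. Medians of the log2 difference were −0.18 for LAD bins and 0.22 for iLAD bins.

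As a single value per library, the log2 ratio of counts per LAD bin over counts per iLAD bin of chromosome 18 was 2.36 and 2.54 in DamV133A-LMNB1, against −0.0047 and 0.0043 in DamV133A. It was 1.24 and 1.34 in DamWT-LMNB1, against 0.33 and 0.31 in DamWT. The libraries of each group lay close together and no groups overlapped. The rise with LMNB1 was thus 2.45 for V133A (5.46-fold) and 0.97 for wild type (1.96-fold), a difference of 1.48. With fragments covered at least once in place of counts the rises were 1.78 and 0.63, and relative to the authors' control bins they were 3.48 and 1.43. The exact permutation test within enzymes (two-sided, 36 arrangements) gave p = 0.0556, the smallest this design allows, so it could not pass 0.05. On the other autosomes the rises were 2.75 and 1.17.

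**Figure D4:**
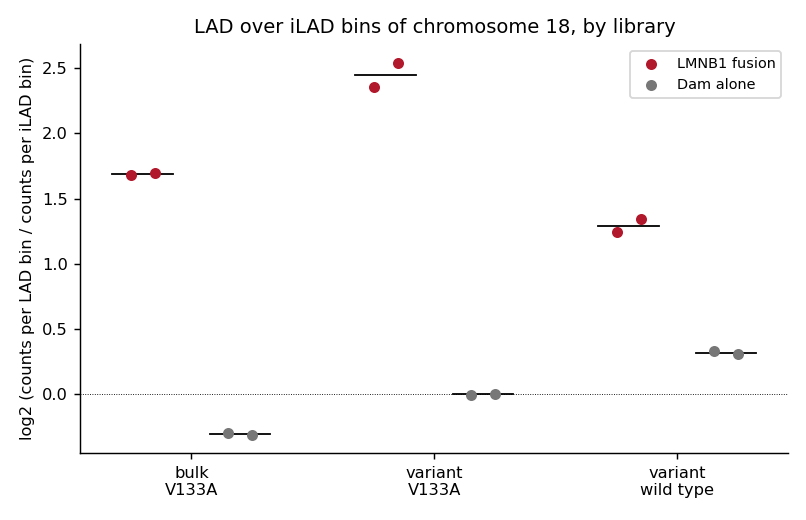
Log2 ratio of counts per LAD bin over counts per iLAD bin of chromosome 18 in 12 libraries (points, n = 2 per group, lines are means), LMNB1 fusions left and Dam alone right. The bulk libraries chose the bin classes, so their points are a description, whereas the variant libraries did not. The V133A fusion libraries of the variant set lie highest, at 2.36 and 2.54.

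In single cells, observed counts were set against those expected from the summed bulk DamV133A libraries. A value of 1 thus means the same share of a cell's fragments as in those bulk libraries. Dam-only cells were not at 1 throughout, with medians of 0.64 in LAD bins of chromosome 18 and 1.69 on chromosome 19. Chromosome 18 as a whole stood at a median of 1.18 in batch 1 fusion cells (range 0.88 to 3.38) and 1.18 in batch 2 fusion cells (0.60 to 1.82), against 0.91 in the 3 Dam-only cells (0.82 to 0.98). It was above 1 in 11 of 15 cells, 31 of 36 cells and 0 of 3 cells of these groups. Chromosome 19 was at medians of 0.43 and 0.57 in fusion cells of batches 1 and 2, against 1.69 in Dam-only cells. Chromosome 17 was at 0.40 and 0.44, against 1.35, and chromosome 20 at 0.57 and 0.76, against 0.92. By median, chromosome 18 ranked 4 of 22 in batch 1 and 3 of 22 in batch 2. Cells of a batch share their preparation, so these are medians and ranges with no test.

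The arms were also compared within cells. The log2 ratio of the long over the short arm had a median of 0.44 in batch 1 fusion cells and was above 0 in 13 of 15. In batch 2 it was −0.05, and above 0 in 15 of 36, and in Dam-only cells it was −0.38. One bin of the short arm, chr18:100001-200000, held a median of 26 and 30.5 fragments in fusion cells of the batches and 45 in Dam-only cells, the most of any bin of chromosome 18, although it was uncalled in bulk. Without it, an alternative chosen after the data were seen, the medians were 0.58, 0.04 and −0.27.

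LAD bins of chromosome 18 stood at a median of 1.88 (range 1.21 to 4.64) in batch 1 fusion cells and 1.59 (0.70 to 2.21) in batch 2 fusion cells, against 0.64 (0.48 to 0.96) in Dam-only cells. Every batch 1 fusion cell and 33 of 36 batch 2 fusion cells were above 1. iLAD bins stood at 0.52 and 0.60 in fusion cells of batches 1 and 2, against 1.03 in Dam-only cells. The log2 contrast of the classes was 1.74 in batch 1 (0.35 to 3.17) and 1.29 in batch 2 (−0.03 to 3.44), against −0.58 in Dam-only cells.

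The contrast was smaller on chromosome 18 than on the rest of the genome in most fusion cells. It was below that of the other autosomes, with medians of 2.42 and 1.65, in 11 of 15 batch 1 cells and 33 of 36 batch 2 cells. LAD bins of chromosome 18 were below those of the other autosomes in 7 of 15 and 17 of 36 cells. iLAD bins of the other autosomes had medians of 0.38 and 0.49, below those of chromosome 18. The variant libraries showed the same order, with rises of 2.45 on chromosome 18 against 2.75 elsewhere in V133A.

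**Figure D5:**
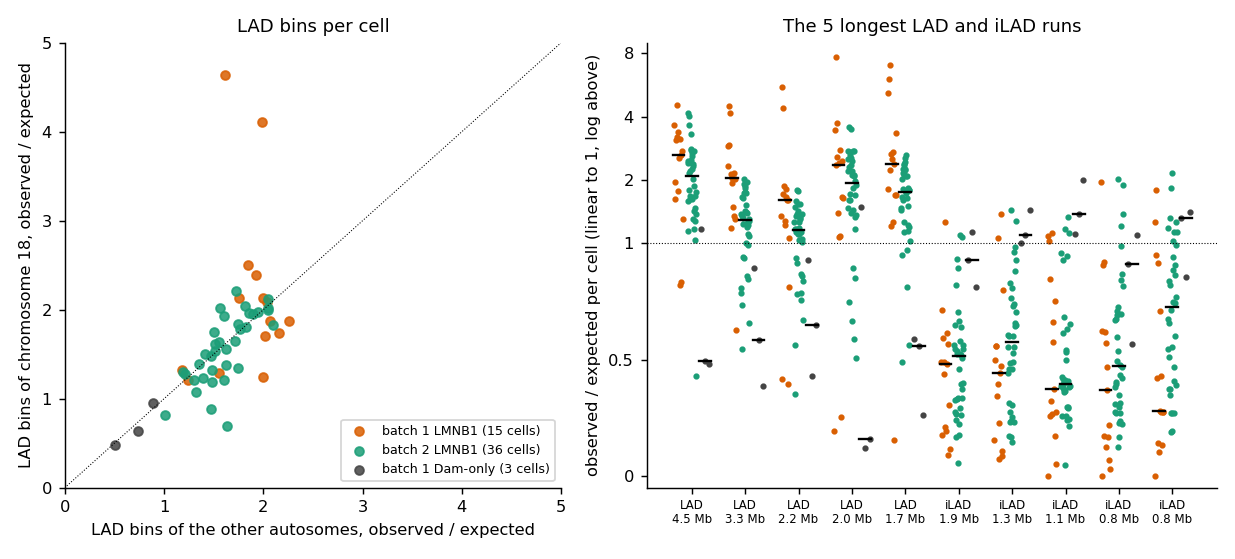
Left, observed over expected counts in LAD bins of chromosome 18 against LAD bins of the other autosomes, 1 point per cell, with equality dotted. Right, observed over expected counts per cell in the 5 longest LAD and the 5 longest iLAD runs, with medians as lines and an axis that is linear up to 1 and logarithmic above. Batch 1 cells 3 and 5 lie far above the dotted line at 4.64 and 4.11, and most fusion cells are above 1 in LAD runs and below 1 in iLAD runs.

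Cells varied widely in the share of their fragments that lay on chromosome 18, and the cause was not tested. Batch 1 cell 3 had 8.01% of its 76492 fragments on chromosome 18, against a batch median of 2.79%. It stood at 3.38 over the chromosome, 3.66 on the long arm and 1.85 on the short arm, and at 4.64 in LAD bins, against 1.62 in LAD bins of the other autosomes. Its iLAD bins were high too, at 1.59, so its share of LAD fragments among both classes was 80.5% (exact Clopper-Pearson 95% interval 79.3 to 81.7, counting error only), near the batch median of 82.6%. Without that cell the batch median over the chromosome was 1.17.

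Batch 1 cell 5 stood at 2.26 over the chromosome, with LAD bins at 4.11 and iLAD bins at 0.52. At the other end, batch 2 cell 5 stood at 0.60, with LAD bins at 0.70 against 1.64 in LAD bins of its other autosomes, although it had 162298 fragments. Batch 2 cell 27 was at 0.68 and cell 16 at 1.82. The spread over cells, as the SD of the log2 value, was 0.53 in batch 1 and 0.30 in batch 2, which ranked chromosome 18 at 8 and 12 of 22 chromosomes.

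The share of LAD bins in contact, meaning at or above 1, had a median of 66.5% in batch 1 fusion cells (18.4 to 88.6%) and 63.1% in batch 2 fusion cells (29.1 to 92.1%), against 23.4% in Dam-only cells (18.4 to 44.9%). For iLAD bins it was 13.3% and 23.5%, against 45.3%. The share depends on depth, and after thinning to 10000 fragments a cell, which left out 1 batch 1 cell, the LAD shares were 37.0% and 34.0%. Over cells of both batches, LAD bins were in contact in a median of 60.8% of fusion cells (29.4 to 86.3%) and iLAD bins in 21.6% (1.96 to 68.6%). Only 14 of 316 LAD bins of chromosome 18 (4.43%) were in contact in 80% of fusion cells, against 7.49% of LAD bins on the other autosomes, a difference with no test.

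The LAD bin in contact in most fusion cells, 44 of 51, was chr18:67500001-67600000 with DSEL, although all 3 Dam-only cells had it at 1 or more as well. The next, at 43 cells each, were chr18:33800001-33900000, in 86.7% and 83.3% of fusion cells of batches 1 and 2 and in 0% of Dam-only cells, and chr18:38100001-38200000, in 93.3% and 80.6%, against 33.3% of Dam-only cells. The fewest, 15 cells each, were chr18:54800001-54900000 with RAB27B, a vesicle trafficking gene, and chr18:55300001-55400000. The bin at chr18:32600001-32700000 was in contact in 17 cells although its bulk log2 fold change was 1.24 ± 0.13, with 160.5 and 161.7 CPM in DamV133A-LMNB1 libraries, against 68.3 and 67.7 CPM in DamV133A libraries.

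The long runs were then followed cell by cell. The 4.5 Mb LAD run stood at medians of 2.61 and 2.08 in fusion cells of batches 1 and 2, and was at 1 or more in 13 of 15 and 35 of 36 cells, against 0.49 and 1 of 3 Dam-only cells. The 3.3 Mb run with the desmosomal cadherins stood at 2.05 and 1.29, and was at 1 or more in 14 of 15 and 25 of 36 cells, against 0.58 and 0 of 3 Dam-only cells. The 2.0 Mb run without genes stood at 2.36 and 1.93, and was at 1 or more in 13 of 15 and 30 of 36 cells, against 0.16 and 1 of 3 Dam-only cells. Its range in batch 1 was 0.19, in a cell with 1 fragment there, to 7.67. The 1.9 Mb iLAD run stood at 0.48 and 0.51, and was at 1 or more in 1 of 15 and 2 of 36 cells, against 0.93 in Dam-only cells. The 0.8 Mb run with RPL17 stood at 0.28 and 0.73, and was at 1 or more in 2 of 15 and 8 of 36 cells, against 1.32 and 2 of 3 Dam-only cells.

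Across the 802 bins, the bulk log2 fold change correlated with the share of cells in contact with r = 0.71 for batch 1 cells and r = 0.70 for batch 2 cells. The shares of the batches correlated with each other at 0.74. The bulk Dam libraries enter each of these through the ratio or the expected count, and neighbouring bins are not independent, so these are descriptions. Across the 758 bins tested in both tables, the bulk change correlated with the variant change at r = 0.80 for V133A and 0.59 for wild type.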

How the data were processed

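HEK293T libraries of 4 kinds were used: bulk DamID, Dam variants, RNA and DamID of cells. Per the file headers, the authors deposited raw counts per 100 kb bin for bulk libraries (no source used here says whether they count reads or fragments) and counts of unique fragments for cells, counts per DpnI fragment for the variants, and estimated counts per gene for RNA. In the deposited bin table there is also a log2 fold change by the authors, used in no result here, and 0 or 1 marks of control bins. Per the submitters' processing notes, which give no roles, the tools included Salmon, limma and DESeq2, as well as bedtools 2.28, BWA 0.7.15-r1140 and Trimmomatic 0.39 beside SAMtools 1.9, on build hg38. Sources used here do not give aligner settings.

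Variant fragments were summed to 100 kb bins by midpoint, and estimated counts rounded. Tests used edgeR 4.0.16 in R 4.3.3 (filterByExpr, TMM, glmQLFit, glmQLFTest) on all bins or genes, with Benjamini-Hochberg adjusted p under 0.05. The bulk fit held 4 libraries, and the variant and RNA fits 8 each in 4 groups. The fits were checked on simulated data. DESeq2 1.42.0 served as an alternative. CPM of single bins and genes are after TMM scaling. CPM of LMNB1 and of the markers of the line, and the shares of genes at 1 or 0.1 CPM, used library totals alone. Other steps ran in Python 3.11.15 with SciPy 1.17.1, pandas 2.3.3 and NumPy 2.4.6, and figures were drawn by matplotlib 3.10.9. Arms were to be split at missing or empty bins; since the centromere bins held a few counts, a limit of 1000 was used. Of 270 genes, placed by RefSeq midpoint (GRCh38.p14), 260 (96.3%) matched an RNA gene and 1 had no tested bin. The chromosome, its lists and tests were chosen with earlier results of these data known. Named regions were the 5 longest runs, the 3 largest and smallest bins, the 3 LAD bins in contact in most and fewest cells, and the arm ends. Named genes were up to 4 members per list and class, up to 4 per run in alphabetical order, and the 5 with most RNA in LADs or the largest RNA change. Replicate numbers do not pair libraries: deviations of same-numbered libraries correlated at −0.06 to 0.03. Alternatives were other scalings, filters, tests, thresholds, bins and left-out libraries.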

Additional observations from a re-analysis of the deposited data

Results flagged for a closer look

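In 4 bins of chromosome 18 the effect of LMNB1 differed between V133A and wild-type Dam by edgeR's test of the difference itself (adjusted p 0.0449 to 0.0468). Of 758 bins, 0.396% were higher and 0.132% lower, against 0.136% and 0.358% of all bins, so few bins passed in either set. At chr18:24000001-24100000, an iLAD bin with TTC39C, the log2 difference was −2.52 ± 0.49 (SE). This bin had 11.1 and 12.4 CPM in DamV133A-LMNB1 libraries, against 56.2 and 48.2 CPM in DamV133A libraries, and 75.6 and 45.5 CPM in DamWT-LMNB1 libraries, against 41.9 and 52.4 CPM in DamWT libraries. At chr18:29800001-29900000, in the LAD run of the desmosomal cadherins, it was 1.80 ± 0.33, with 235.5 and 243.1 CPM in DamV133A-LMNB1 libraries, against 41.6 and 64.0 CPM in DamV133A libraries. At chr18:40600001-40700000, a LAD bin, it was 1.71 ± 0.33, and at chr18:66800001-66900000, in the longest LAD run, 3.00 ± 0.61. The count of such bins moved with single libraries. Leaving out 1 library of DamV133A or DamWT, or DamWT-LMNB1 replicate 1, left 0. There were 19 higher and 36 lower without DamV133A-LMNB1 replicate 1, 8 and 40 without its replicate 2, and 9 and 4 without DamWT-LMNB1 replicate 2. No group of libraries or cells had a size at which single outlying samples are tested.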

How the results depend on the processing

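The counts below are higher and lower bins or genes of chromosome 18. With library totals as the scale, V133A gave 123 and 178, wild type 1 higher and the interaction 2 lower. DESeq2 gave 65 and 10 for wild type, 63 and 27 for the interaction, 2 lower for DamV133A over DamWT, and 24 lower RNA genes. Fragments covered at least once, in place of counts, gave 7 and 4 for wild type and 13 and 2 for the interaction. DESeq2 size factors, or no filter on low counts, gave 2 lower for the interaction, and no filter gave 41 lower RNA genes. With the replicate block, which the labels do not justify, the interaction gave 0 and 0 and RNA 10 and 4. It moved no other count of calls by over 1.5 times and ended no call on a gain of the chromosome.

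Leaving out 1 library gave ranges of 102 to 185 lower bulk bins, V133A 128 to 211 higher and 47 to 135 lower, wild type 0 to 36 higher and 0 to 16 lower, interaction 0 to 19 higher and 0 to 40 lower, and RNA 0 to 36 higher and 0 to 75 lower. With the variant libraries alone, the gains of chromosome 18 over the other autosomes and chromosomes 17, 19 and 20, and of the long over the short arm, were 0.11, 1.16, 1.41, 0.87 and 0.57, with p = 0.0556 in the exact permutation test, the smallest of its 36 arrangements.

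In cells, the authors' control bins gave contrasts of 3.39 in batch 1 and 2.17 in batch 2. Thinning to 10000 fragments gave 37.0% and 34.0% of LAD bins in contact in fusion cells of batches 1 and 2, and 29.3% of iLAD bins in Dam-only cells. A limit of 2 gave 39.2% and 35.3% of LAD bins, 6.08% of iLAD bins in batch 2 and 18.2% in Dam-only cells. Genes at 0.1 CPM were 73.2% in LADs and 92.4% in iLADs. With the bins called on library totals, 35.9% and 82.1% of genes in LADs and iLADs reached 1 CPM. Where leaving out a library left 1 in a group, that library was assumed to vary like the other groups. The cause of these shifts was not tested. Among single named bins and genes, 776 values kept their side, 58 lost and 33 gained a call, and 0 reversed. A single 100 kb bin of a cell held few fragments, so a bin without fragments says little, and variant calls are limited by depth.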
